A study of Homo sapiens with 4 samples.

Results

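The genes described here are 10 components of the NF-κB system, 5 subunits of the transcription factor (NFKB1, NFKB2, REL, RELA and RELB), 3 inhibitors of the IκB family (NFKBIA, NFKBIE and NFKBIZ) and 2 feedback proteins that act on ubiquitin (TNFAIP3 and BIRC3). They were chosen by name, as known parts of this pathway, from the 63677 genes in the count files, and all 10 had 1 identifier on a primary chromosome and passed the filter on low counts that left 15398 genes. Expression was measured by poly(A) RNA-seq in IMR90, a line of primary fibroblasts from human lung. The 2 control libraries came from cells that received a non-targeting siRNA, and the 2 knockdown libraries from cells that received siRNA against HMGB1 mRNA, a gene for an abundant chromatin and RNA-binding protein that acts as an alarmin once secreted. Both transfections used RNAiMAX and lasted 72 h. In each group replicate 1 was the isolate I90-10 and replicate 2 the isolate I90-79, so each group held 1 library of each isolate. The control libraries held 29869338 and 35317010 counted reads and the knockdown libraries 29861687 and 31086475.

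NF-κB acts as a dimer of its subunits. In resting cells IκB proteins cover the dimers and keep them in the cytoplasm, and signals from cytokine and pattern recognition receptors activate the IκB kinase complex, which marks the IκB proteins for degradation and frees the dimers to bind DNA. Several genes that the freed dimers switch on encode brakes on the same signal, among them new IκB proteins and enzymes that edit or remove ubiquitin chains from the upstream signalling complexes. In fibroblasts this pathway drives chemokines, cytokines and matrix proteases, many of which belong to the senescence-associated secretory phenotype (SASP).

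The libraries were checked first for the targeted gene and for the labelled cell type. HMGB1 (hg19 chr13:31032884-31191734, minus strand) had 181 and 237 CPM (read counts scaled to the library size with TMM factors) in the control libraries and 15.96 and 18.86 CPM in the knockdown libraries. Its level fell to 0.0833 of the control level (log2-fold change −3.59, SE 0.19, adjusted p = 0.0075), in edgeR's quasi-likelihood test with Benjamini-Hochberg adjustment over the 15398 genes. A gene was called where the adjusted p was below 0.01 and the absolute log2-fold change above 0.6. Without knockdown replicate 1 or knockdown replicate 2 this p was 0.049 or 0.032, so HMGB1 was then not called, at log2-fold changes of −3.47 and −3.71. All 9 fibroblast markers were detected. By mean RPKM (reads per length) over the 4 libraries the most abundant was COL3A1, a fibrillar collagen, although COL1A1 lay above it in control replicate 1. Together the 9 markers summed to 34100 and 17970 CPM in the control and 32500 and 20460 CPM in the knockdown libraries. These sums separated the isolates more than the groups. Markers of endothelium, epithelium and leukocytes were low or at 0. CDH5 (endothelial), KRT5 (epithelial) and CD3E (T cell) had 0 reads in all 4 libraries, CDH1 had 1 read over all libraries and PTPRC, the pan-leukocyte marker, 1 read in each I90-10 library. KDR had 4, 21, 5 and 25 reads, EPCAM 17 to 20 and CD14 1 to 5. VWF, an endothelial secreted protein, had 40 and 34 reads in the control and 120 and 81 in the knockdown libraries.

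Levels between genes were compared per length, as RPKM from the exon lengths in the files. In the control libraries NFKBIA was the most abundant of the 10 transcripts with 105.5 RPKM on average, followed by NFKBIZ (38.3), TNFAIP3 (30.5), NFKB2 (21.0), RELB (17.2), NFKB1 (14.5), RELA (13.5) and NFKBIE (9.57). BIRC3 (0.913) and REL (0.355) had the lowest values. The place of REL is uncertain, since 50.7% of the exonic bases in its length are overlapped on the same strand by another annotated gene. In this order NFKBIZ and TNFAIP3, TNFAIP3 and NFKB2, NFKB2 and RELB, and NFKB1 and RELA overlapped in their ranges over the 2 libraries, although each pair kept its order within each library. In the knockdown libraries NFKBIA (86.5) was again highest, TNFAIP3 (58.7) stood before NFKBIZ (55.5), and RELA (19.8) stood before RELB (18.3) and NFKB1 (14.6). Of neighbours in the knockdown order, TNFAIP3 and NFKBIZ were the pair whose ranges overlapped.

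**Figure D1:**
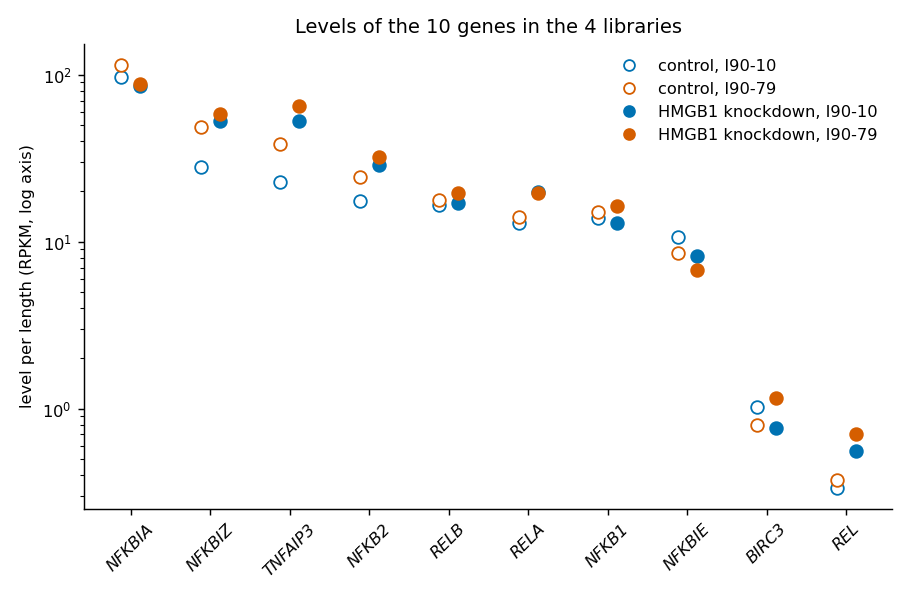
Level of each gene per length (RPKM, log axis) in the 4 libraries, with open circles for control and filled circles for HMGB1 knockdown, coloured by isolate. NFKBIA is highest in all 4 libraries, and BIRC3 and REL lie near or below 1 RPKM. The level of REL is uncertain, since another annotated gene overlaps part of its exons.

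Among the 10 genes, the knockdown libraries held more NFKB2, REL, RELA, NFKBIZ and TNFAIP3 mRNA than either control library and less NFKBIA and NFKBIE, while NFKB1, RELB and BIRC3 overlapped between the groups. None of the 10 was called in the test of the groups alone. Over all genes tested that test called 0.0649% higher and 0.136% lower, so it called few genes of any kind. At an unadjusted p below 0.05, 4 of the 10 were higher (NFKB2, REL, RELA and TNFAIP3) and 0 were lower, beside 13.6% higher and 14.7% lower of all genes tested. In a second fit the isolate entered as a block, which uses that both isolates occur in both groups, and there 1 of the 10 was called higher (TNFAIP3) and 0 lower, beside 6.68% and 7.84% of all genes. DESeq2 on the groups alone called TNFAIP3 alone among the 10, beside 4.73% higher and 5.31% lower of all genes, and so did RUVs with 1 factor followed by DESeq2, beside 4.97% and 5.39%. Both knockdown libraries lay above both control libraries for 5 of the 10 genes and below for 2, compared with 29.8% and 30.2% of all genes. The median log2-fold change of the 10 was 0.31 (0.19 after RUVs), and that of all genes −0.0054. With 2 libraries per group an exact permutation test of a single gene cannot give a two-sided p below 0.333. In bulk RNA, fewer cells of a type and less RNA per cell cannot be told apart.

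**Figure D2:**
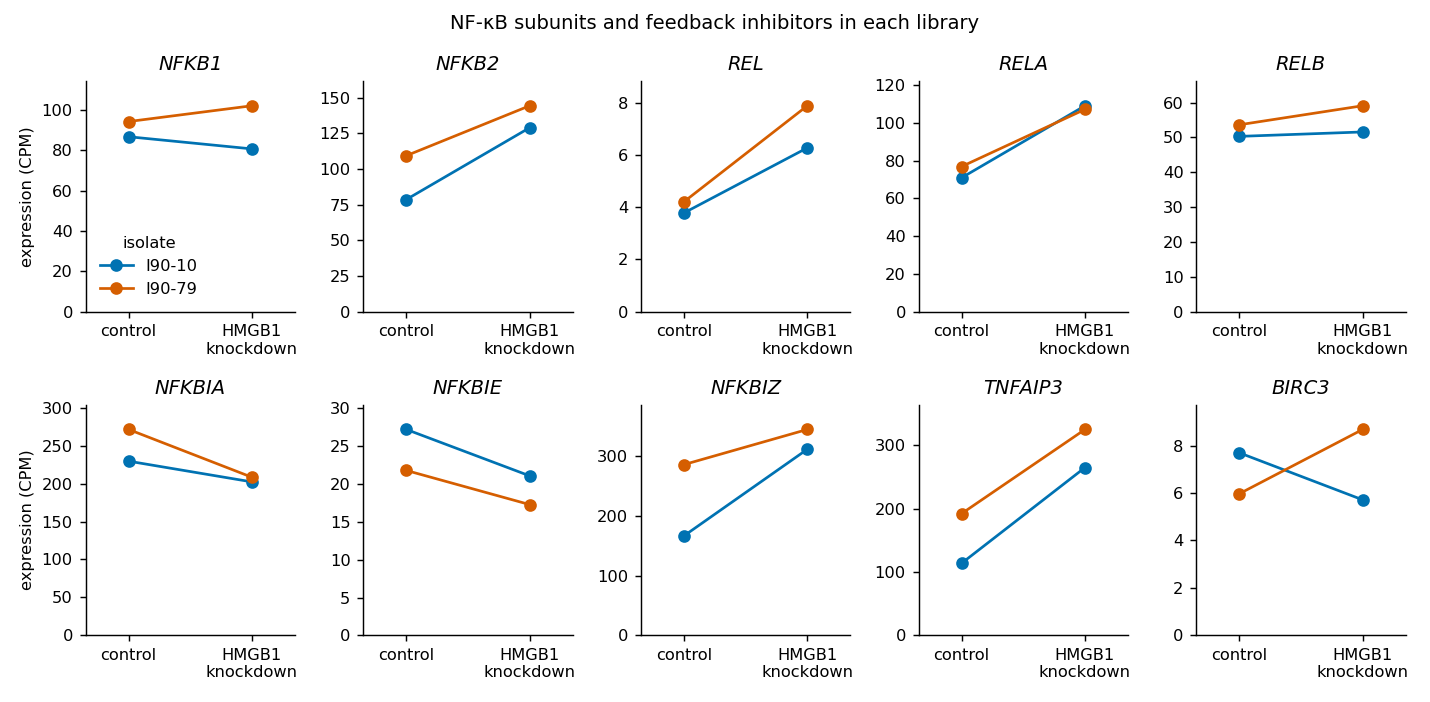
Expression (CPM, axes from 0) of each gene in the control and HMGB1 knockdown library of each isolate, with a line joining the libraries of 1 isolate. TNFAIP3, NFKBIZ, NFKB2, RELA and REL lie higher in both knockdown libraries than in either control library, NFKBIA and NFKBIE lie lower, and the lines of NFKB1 and BIRC3 run in opposite directions.

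TNFAIP3 (hg19 chr6:138188351-138204449, plus strand) encodes a ubiquitin-editing enzyme that dismantles the signalling complexes upstream of the IκB kinase, and it is among the best known feedback targets of NF-κB. It had 114 and 192 CPM in the control and 265 and 325 CPM in the knockdown libraries. The groups did not overlap, and the I90-79 library was the higher of each pair. In the group-only fit TNFAIP3 was 1.93-fold higher (log2-fold change 0.95, SE 0.27) with an adjusted p of 0.097, which missed the threshold. In the blocked fit it rose by 0.99 on the log2 scale (SE 0.12, adjusted p = 8.1e-04). Its log2-fold change was 1.22 in I90-10 and 0.76 in I90-79. Without control replicate 2 the value was 1.37 and was called in the group-only fit, and without control replicate 1 it was 0.62 and was not called.

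NFKBIZ (chr3:101546835-101579866, plus strand) encodes an atypical nuclear IκB protein that binds the NFKB1 product and can activate as well as repress secondary response genes. Its level was 166 and 285 CPM in the control and 311 and 344 CPM in the knockdown libraries. Control replicate 2 was much nearer to the knockdown libraries than control replicate 1 was. The log2-fold change was 0.54 (SE 0.27, adjusted p = 0.26) in the group-only fit and 0.59 (SE 0.15, adjusted p = 0.018) in the blocked fit, and neither was called. It was 0.90 in I90-10 and 0.27 in I90-79, and leaving out control replicate 1 gave 0.20 in the group-only fit, against 0.98 on leaving out control replicate 2. Of the exonic bases of NFKBIZ, 3.29% overlap NXPE3 in the annotation, and reads there cannot be assigned to either gene with certainty.

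NFKBIA (chr14:35870717-35873955, minus strand) and NFKBIE (chr6:44225903-44233500, minus strand) encode the classical inhibitors IκBα and IκBε, which hold NF-κB dimers in the cytoplasm and are resynthesised when the pathway is active. NFKBIA had 229.5 and 271 CPM in the control and 202 and 208 CPM in the knockdown libraries. NFKBIE had 27.2 and 21.8 CPM in the control and 21.1 and 17.3 CPM in the knockdown libraries. Both were lower in the knockdown library of each isolate, although for NFKBIE the I90-79 control and the I90-10 knockdown library were nearly level. The log2-fold change of NFKBIA was −0.29 (SE 0.13, adjusted p = 0.23) in the group-only fit and −0.28 (adjusted p = 0.060) in the blocked fit. That of NFKBIE was −0.35 (SE 0.18, adjusted p = 0.27) and −0.35 (adjusted p = 0.047). Neither passed the thresholds in either fit. Without control replicate 2 the group-only value of NFKBIA was −0.16, and that of NFKBIE was −0.19 without control replicate 1 and −0.21 without knockdown replicate 2. BIRC3 (chr11:102188215-102210134, plus strand), a ubiquitin ligase that takes part in the turnover of MAP3K14, had 7.69 and 5.97 CPM in the control and 5.71 and 8.68 CPM in the knockdown libraries. Its log2-fold change was −0.43 in I90-10 and 0.53 in I90-79, with 165 to 271 reads in a library, and the group-only value was 0.077 (SE 0.28, adjusted p = 0.88).

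Of the subunits, RELA (chr11:65421067-65430565, minus strand) encodes the activating partner of the classical dimer. It had 71.0 and 76.9 CPM in the control and 109 and 107 CPM in the knockdown libraries, with little spread between the isolates. Its log2-fold change was 0.55 (SE 0.11, adjusted p = 0.045) in the group-only fit and 0.55 (SE 0.096, adjusted p = 0.0038) in the blocked fit, which passed the threshold on p and not the one on fold. NFKB2 (chr10:104153867-104162281, plus strand) encodes the precursor that the non-canonical pathway processes into a partner of RELB. It had 78.7 and 109 CPM in the control and 129 and 144 CPM in the knockdown libraries, so the groups did not overlap but the controls differed from each other. Its log2-fold change was 0.54 (SE 0.19, adjusted p = 0.14) and, in the blocked fit, 0.56 (SE 0.11, adjusted p = 0.0060), below the threshold on fold. Without control replicate 1 the group-only value was 0.32. REL (chr2:61108656-61158745, plus strand), a subunit best known from lymphoid cells, had 3.78 and 4.21 CPM in the control and 6.27 and 7.88 CPM in the knockdown libraries, from 111 to 246 reads. Its log2-fold change was 0.82 (SE 0.23, adjusted p = 0.087) and, in the blocked fit, 0.82 (SE 0.18, adjusted p = 0.011), just past the limit of 0.01. The count of REL is uncertain. Another annotated gene (ENSG00000267520, with 0 reads in all 4 libraries) overlaps 50.7% of its exonic bases on the same strand. Whether reads in these bases were counted for REL or left out is not given in the sources used here. Of the 50-base pieces of REL transcripts, 32.9% occur in transcripts of other genes.

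NFKB1 (chr4:103422486-103538459, plus strand), whose precursor is cut to the DNA-binding partner of RELA, had 86.7 and 94.3 CPM in the control and 80.7 and 102 CPM in the knockdown libraries. RELB (chr19:45504688-45541452, plus strand), the activating subunit of the non-canonical pathway, had 50.3 and 53.7 CPM in the control and 51.6 and 59.1 CPM in the knockdown libraries. For both genes the groups overlapped. The log2-fold changes were 0.015 (SE 0.15, adjusted p = 0.96) for NFKB1 and 0.091 (SE 0.12, adjusted p = 0.68) for RELB, and NFKB1 was −0.10 in I90-10 and 0.12 in I90-79.

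**Figure D3:**
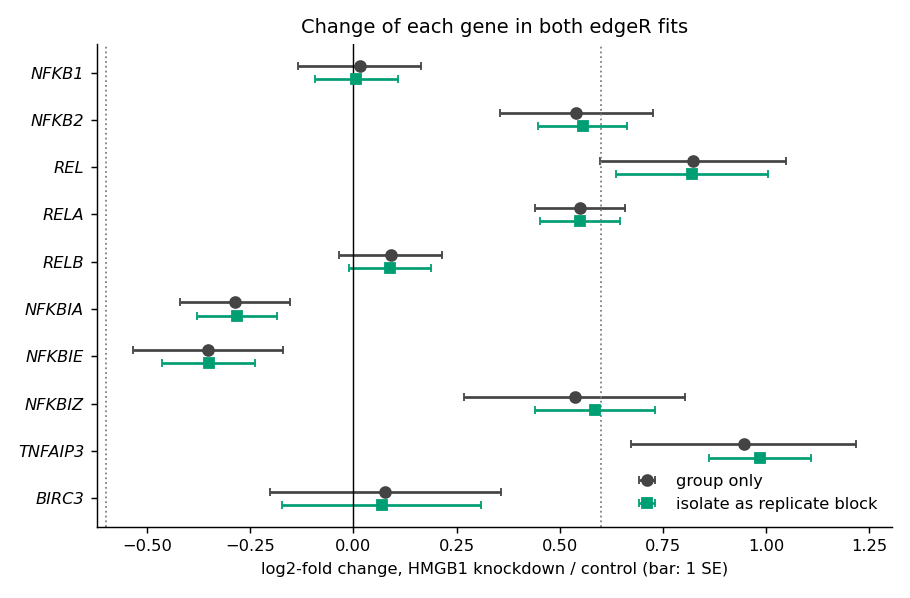
Log2-fold change of each gene, HMGB1 knockdown over control, with 1 SE, from the edgeR fit of the groups alone (circles) and the blocked fit with a term for the isolate (squares). Dotted lines mark 0.6 in either direction, and TNFAIP3 and REL are the genes above it in both fits.

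The differences within the system can also be read within a library, as ratios of RPKM, which do not depend on the scaling between libraries. NFKBIA stood at 7.44 and 8.12 times RELA in the control libraries and at 4.27 and 4.47 times in the knockdown libraries. NFKBIA stood at 4.26 and 2.99 times TNFAIP3 in the control and at 1.62 and 1.36 times in the knockdown libraries. NFKB2 stood at 1.27 and 1.62 times NFKB1 in the control and at 2.23 and 1.98 times in the knockdown libraries, and RELA at 0.937 and 0.934 times NFKB1 and then at 1.55 and 1.20 times. NFKBIE stood at 0.818 and 0.605 times RELA in the control and at 0.413 and 0.344 times in the knockdown libraries, and NFKB2 at 1.06 and 1.38 times RELB and then at 1.69 and 1.65 times. For these 6 ratios the groups did not overlap. They overlapped for the other 2 ratios computed, TNFAIP3 to RELA (1.75 and 2.72 in the control, 2.64 and 3.30 in the knockdown libraries) and NFKBIZ to RELA (2.17 and 3.44, then 2.64 and 2.97). The ratios are a description, and no test was made of them. They share genes and in part restate the changes of single genes given above. No share of such ratios over all genes was computed. Of the summed RPKM of the 5 subunits, NFKB2 made up 28.6% and 34.1% in the control and 36.4% and 36.5% in the knockdown libraries. NFKB1 made up 22.6% and 21.0% and then 16.3% and 18.5%, and REL made up between 0.522% and 0.792%. The share of REL carries the uncertainty of its count and length given above.

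In the fit with group and isolate, I90-79 was also compared with I90-10 over the 4 libraries, and none of the 10 genes passed the thresholds. TNFAIP3 had a log2 difference of 0.52 between the isolates (adjusted p = 0.045), NFKBIZ of 0.46 (adjusted p = 0.11), NFKB2 of 0.32 (adjusted p = 0.13) and NFKBIE of −0.30 (adjusted p = 0.16). RELA was at 0.045 (adjusted p = 0.84). Of all genes, 0.442% were called higher and 1.23% lower in I90-79. Without 1 library the isolate values ranged from −0.037 to 1.18 for TNFAIP3 and from 0.015 to 0.92 for NFKBIZ. These values came from fits of the isolate without a group term, so they also carry part of the group difference. Without control replicate 1, for example, TNFAIP3 was at −0.037, while its knockdown libraries lay 0.30 apart. The ranges are thus no measure of the stability of the isolate difference alone. At an unadjusted p below 0.05, 3 of the 10 were higher in I90-79 (TNFAIP3, NFKBIZ and NFKB2) and 1 lower (NFKBIE), beside 10.4% and 11.8% of all genes. The TNFAIP3 libraries of the isolates lay 0.75 log2 units apart in the controls and 0.30 apart in the knockdown, and those of NFKBIZ 0.78 and 0.15. The difference between these pairs of values was not tested, since 4 libraries leave no residual degree of freedom for it.

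The promoters of these genes were searched for the NF-κB consensus, the textbook binding motif of 10 bases, since expression of several members is itself under NF-κB control. RefSeq windows (GRCh38.p14) from 250 bases before to 50 after the start were at hand for 8 of the 10 genes (all but RELB and NFKBIE), and each was placed in hg19 by an exact match. On either strand, the consensus occurred in 6 of these 8 windows (75.0%) and in 5.91% of all 35116 windows of the same length. A looser pattern of the same length, which fixes the G bases at its front and the C bases at its end and leaves the middle open, covers every match of the consensus and was in all 8 windows and in 58.7% of all windows. So the contrast with other promoters depends on the pattern searched. NFKB2 and RELA held no match to the consensus, which says only that these letters are not in this window. For RELA the RefSeq start lies 763 bases before the gene as counted in the files, so its window does not cover the start of the counted gene, while the starts of the other 7 lie within 53 bases of theirs. The stretches below show the matches in capitals with 20 bases on either side, on the strand of the gene, for the genes with a match. TNFAIP3 (chr6:138188309-138188370, plus strand) holds 2 matches side by side, while NFKB1 (chr4:103422447-103422496, plus strand), NFKBIA (chr14:35874007-35874056, minus strand) and NFKBIZ (chr3:101546591-101546640, plus strand) hold 1 each. In REL (chr2:61108642-61108692, plus strand) 2 overlapping matches on opposite strands make up the capitals, and BIRC3 (chr11:102187996-102188109, plus strand) holds 2.
TNFAIP3: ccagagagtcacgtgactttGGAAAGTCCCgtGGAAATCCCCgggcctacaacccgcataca
NFKBIZ: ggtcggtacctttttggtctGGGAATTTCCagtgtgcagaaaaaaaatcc
NFKBIA: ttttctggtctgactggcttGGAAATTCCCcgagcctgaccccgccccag
NFKB1: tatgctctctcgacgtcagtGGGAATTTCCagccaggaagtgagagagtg
REL: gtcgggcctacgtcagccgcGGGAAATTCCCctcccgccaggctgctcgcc
BIRC3: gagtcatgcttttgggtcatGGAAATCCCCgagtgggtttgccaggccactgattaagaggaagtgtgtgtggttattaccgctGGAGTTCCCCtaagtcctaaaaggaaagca
Counted from the start, the matches lay at −67 to −58 and −55 to −46 in TNFAIP3, at −49 to −40 in NFKB1, at −47 to −37 in REL and at −81 to −72 in NFKBIA. They lay farther out in NFKBIZ (−223 to −214) and BIRC3 (−199 to −190 and −135 to −126). A match did not sort the genes by direction. Of the 6 genes with one, TNFAIP3, NFKBIZ and REL were higher in both knockdown libraries, NFKBIA was lower, and NFKB1 and BIRC3 overlapped between the groups. Of the 24 NF-κB target genes described below that had a window, 10 held the consensus (41.7%), against 2 of 18 upstream signalling genes and 2 of 16 other inhibitors.

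**Figure D4:**
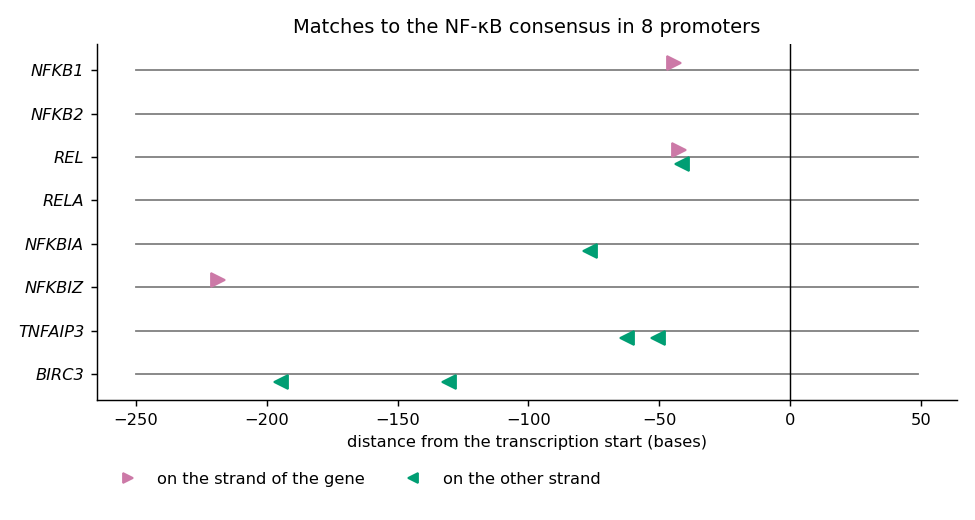
Position of each match to the NF-κB consensus relative to the transcription start in the RefSeq promoter windows of 8 genes, with right-pointing markers for the strand of the gene and left-pointing markers for the other strand. Matches lie near the start in NFKB1, REL, NFKBIA and TNFAIP3, and NFKB2 and RELA have none, the RELA window being placed at a RefSeq start 763 bases before the counted gene.

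The rest of the pathway was described by 3 lists. The upstream list held the IκB kinases and adaptors, kinases and ubiquitin ligases of the same signalling, and 21 of its 22 genes were tested. Their median log2-fold change was 0.027, with 0.19 on leaving out control replicate 2 and −0.0032 after RUVs, so it had no stable sign. In the group-only fit 0 were called, with 4 higher and 3 lower at an unadjusted p below 0.05, beside 13.6% and 14.7% of all genes. In the blocked fit 1 was called higher and 2 lower, beside the 6.68% and 7.84% of all genes. DESeq2 on the groups also called 1 and 2, beside 4.73% and 5.31%. After RUVs these were 1 and 1, beside 4.97% and 5.39%, since TAB2, at −0.59, was then not called. TRAF3, an adaptor that restrains MAP3K14, had 56.8 and 58.9 CPM in the control and 96.9 and 89.1 CPM in the knockdown libraries and rose by 0.68 on the log2 scale in the blocked fit (adjusted p = 0.0016). TAB2, which links ubiquitin chains to the kinase MAP3K7, fell by 0.61 (adjusted p = 0.0024), from 121 and 114 to 75.4 and 78.6 CPM. TRAF5, an adaptor of TNF receptor family members, had 31.0 and 17.3 CPM in the control and 10.0 and 6.95 CPM in the knockdown libraries and fell by 1.47 (adjusted p = 2.4e-04). RBCK1, of the linear ubiquitin ligase complex, was the most abundant of the list per length at 27.4 RPKM, with a log2-fold change of 0.0079 (adjusted p = 0.96).

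The second list held other IκB proteins and inhibitors of the pathway, of which 16 of 17 were tested, with a median log2-fold change of 0.066, which ranged from 0.040 to 0.16 on leaving out 1 library. None was called in the group-only fit, and 3 higher and 3 lower had an unadjusted p below 0.05, beside 13.6% and 14.7% of all genes. In the blocked fit 2 were called higher and 3 lower, beside 6.68% and 7.84%. DESeq2 on the groups and RUVs each called 0 higher and 2 lower, beside 4.73% and 5.31% and beside 4.97% and 5.39%, so TNIP3, ZC3H12A and CYLD were called in neither. TNIP3, a partner of the TNFAIP3 protein, rose by 1.41 (adjusted p = 0.0053), from 0.919 and 2.09 to 3.05 and 4.74 CPM. ZC3H12A, an RNase that degrades inflammatory mRNAs and is itself induced by NF-κB signalling, had 53.2 and 83.7 CPM in the control and 110.1 and 113 CPM in the knockdown libraries and rose by 0.74 (adjusted p = 0.0062). N4BP1, a ubiquitin-binding inhibitor of NF-κB signalling, fell by 1.52 (adjusted p = 7.0e-05), from 62.2 and 53.2 to 20.7 and 19.5 CPM. RNF11, a member of the TNFAIP3 ubiquitin-editing complex with the highest mean RPKM of the list over the 4 libraries (39.0 in the control and 19.9 in the knockdown libraries, where ZC3H12A and TNIP1 lay above it), fell by 0.96 (adjusted p = 3.9e-04), and CYLD, a deubiquitinase that removes activating chains, by 0.60 (adjusted p = 0.0070). The calls of the blocked fit in this list went in both directions, as did its calls over all genes tested.

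Genes that NF-κB is known to induce made up the third list, of which 29 of 31 were tested. CCL5 had no identifier matched, and TNF, with 0 and 3 reads in the control and 0 and 1 in the knockdown libraries, did not pass the filter. The median log2-fold change was 0.68. It was 0.33 without control replicate 1, 2.36 without control replicate 2, 0.36 without knockdown replicate 2 and 0.40 after RUVs. In both knockdown libraries 13 genes lay higher and 6 lower than in either control, beside 29.8% and 30.2% of all genes. In the group-only fit 0 were called, and 4 higher and 3 lower had an unadjusted p below 0.05, beside 13.6% and 14.7% of all genes. In the blocked fit 12 were called higher and 2 lower, beside 6.68% and 7.84%, and with DESeq2 on the groups alone 2 and 1, beside 4.73% and 5.31%. After RUVs 5 were called higher and 3 lower, beside 4.97% and 5.39%. The 5 with the smallest p among the 12 were MMP3, a matrix protease, with a rise of 3.94 on the log2 scale (adjusted p = 1.6e-04), the stress-response gene IER3 (1.68), the hyaluronan-binding TNFAIP6 (1.83), the cytokine IL1A (1.80) and the neutrophil chemokine CXCL3 (2.50). MMP3 had 3.92 and 61.9 CPM in the control and 123 and 579 CPM in the knockdown libraries. After RUVs its log2-fold change was 2.45, and that of CXCL3 was 1.52 (adjusted p = 0.075) and not called, while IL1A was at 0.91. IER3 had 138 and 347 and then 555 and 887 CPM. An antisense gene overlaps 26.5% of the exonic bases of IER3, and whether the counting used the strand is not given in the sources used here. VCAM1, an adhesion molecule, fell by 1.32 (adjusted p = 7.3e-05), from 373 and 217 to 146.5 and 88.1 CPM, and SOD2, the mitochondrial superoxide dismutase, by 0.61 (adjusted p = 0.0021), with 12.1% of its exonic bases overlapped by WTAP and ACAT2 on the other strand. PLAU, the urokinase-type plasminogen activator, was the most abundant per length at 1807 RPKM, with 31.1% of its exonic bases overlapped by another gene on the other strand, and had a log2-fold change of 0.81 in the blocked fit (adjusted p = 0.013). The isolates differed as well. In I90-79, 6 of the 29 were called higher and 1 lower, beside 0.442% and 1.23% of all genes, and the median log2 difference was 0.9995. The part of the isolate in the group-only result was not tested. The blocked fit takes out an isolate difference that is the same in both groups. It does not take out a change with knockdown that differs between the isolates.

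**Figure D5:**
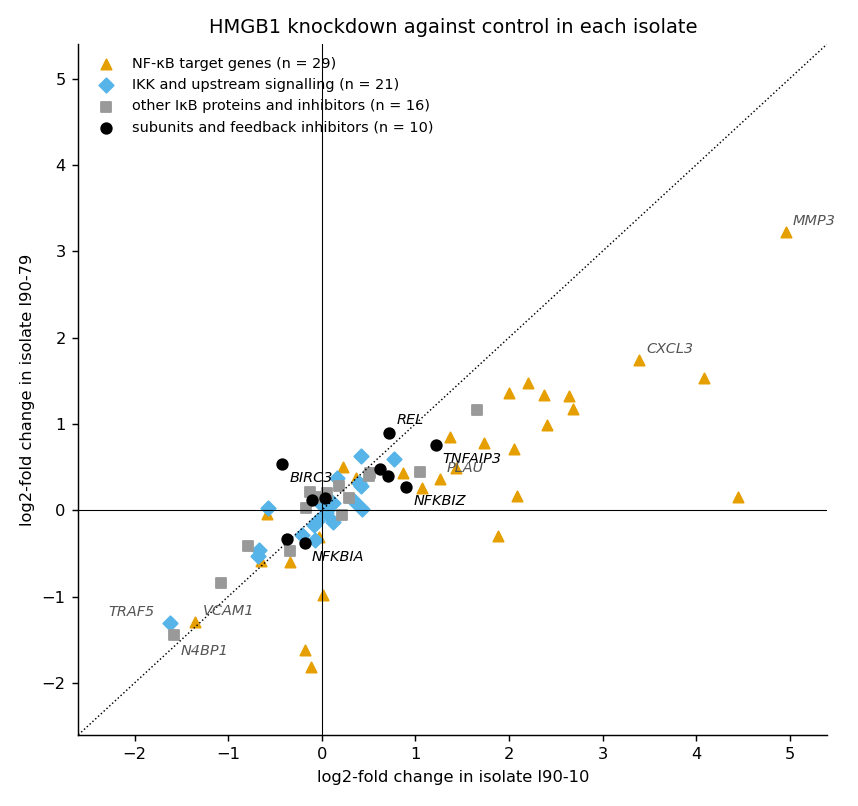
Log2-fold change, HMGB1 knockdown over control, in isolate I90-10 (horizontal) and I90-79 (vertical), 1 point per gene, for the 10 subunits and feedback inhibitors and the 3 lists, with a dotted line of equal change. Of the 10 genes, 8 have the same sign in both isolates, NFKB1 and BIRC3 do not, and most target genes with a rise lie below the line.

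Both isolates gave the same sign for 8 of the 10 genes (80.0%), against 78.3% of all genes tested. For the target genes it was 27 of 29, for the upstream genes 17 of 21 and for the other inhibitors 11 of 16.

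The word GCAGTT was counted in the 3′ UTRs of 12567 tested genes. It was picked in an earlier search of these same data for words that go with the fold change. The values over all genes and the counts in the lists below therefore restate that choice. They are given as a description only, with no allowance for the length of the 3′ UTR. Genes with 0 copies had a median log2-fold change of 0.071, those with 1 copy −0.082 and those with 2 or more −0.25, and the blocked fit called 4.20%, 12.7% and 22.9% of them lower. It called 660 of 7807, 199 of 2843 and 109 of 1917 of them higher. HMGB1 itself holds 3 copies. The sequences of the siRNAs are not given in the sources used here, and the part of this word in the results was not tested. Among the 10 genes it occurred in REL (2 copies), RELA, NFKBIE and NFKBIZ (1 each), and in none of TNFAIP3, NFKBIA, NFKB1, NFKB2, RELB and BIRC3. Of the 7 genes called lower in the 3 lists, 6 had a 3′ UTR to search and 5 of these held the word in 2 or more copies (N4BP1, RNF11 and TAB2 with 3, CYLD and TRAF5 with 2), while VCAM1 held none. Of the 15 called higher, 4 held it, TRAF3 with 2 copies. Of the 41 searched list genes that were not called, 11 held it and 5 held 2 or more copies. Over all 12567 genes searched, called or not, 37.9% held the word and 15.25% held 2 or more copies. Among all searched genes that the blocked fit called lower, 800 held the word, 438 of them in 2 or more copies, and 328 held none. Among those called higher, 308 held it and 660 held none.

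Of the 10 genes, TNFAIP3 had the widest range of log2 CPM over the 4 libraries (1.51), and NFKBIZ (1.048) and REL (1.047) were level behind it, so that the choice of NFKBIZ over REL rests on a tie. By Euclidean distance between mean-centred log2 CPM over these 4 libraries, the genes most like TNFAIP3 were PHLDA1 (0.0823), CEBPB, RNF39, SEMA3A and RPP25 (0.101). PHLDA1 had 417 and 685 CPM in the control and 1005 and 1243 CPM in the knockdown libraries, and CEBPB, a transcription factor of inflammatory genes, 122 and 209 and then 270.2 and 331 CPM. The genes most like NFKBIZ were RAC2 (0.0403), SNHG15, ACSL4, GINS2 and PIM2 (0.0915), and ACSL4 had 395 and 689 CPM in the control and 733 and 783 CPM in the knockdown libraries. With 4 libraries from 2 isolates, such likeness describes the profile of these libraries and carries no test.

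Markers of other cells were set beside these results. VWF was the endothelial marker that moved, by 1.55 on the log2 scale in the blocked fit (adjusted p = 0.0036), while the endothelial markers summed to 1.498 and 1.493 CPM in the control and 4.33 and 3.39 CPM in the knockdown libraries. The epithelial markers summed to 0.461 to 0.715 CPM, and the leukocyte markers PTPRC, CD3E and CD14 were too low to be tested. Of the fibroblast markers, LUM rose by 0.83 in the blocked fit (adjusted p = 0.0029), PDGFRB fell by 0.68 (adjusted p = 0.0026) and THY1 by 0.99 (adjusted p = 3.1e-04). COL1A1, COL1A2, COL3A1, DCN, VIM and S100A4 were not called. Beside this 1 higher and 2 lower stood 6.68% and 7.84% of all genes. After RUVs 3 markers were called higher (LUM, COL3A1 and DCN) and 0 lower, beside 4.97% and 5.39%. PDGFRB was then at −0.23 and THY1 at −0.37. DESeq2 on the groups alone called 0 in either direction, beside 4.73% and 5.31%. In I90-79, 5 of the 9 were called lower than in I90-10, beside 1.23% of all genes, COL1A1 with a log2 difference of −1.005. The part of these markers in the results was not tested.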

How the data were processed

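Poly(A) RNA from siRNA-treated IMR90 was sequenced in 4 libraries, and the isolates and groups were taken from the labels. Per the study's methods and the labels' processing notes, the authors aligned reads to the hg19 genome using STAR, and featureCounts gave the unique counts of each gene. The deposited values are raw counts of reads per gene, with the gene length beside them as another deposited column, and no normalization. Versions and the strand setting are not given in the sources used here. The authors' own table of fold changes was used only to pair 61 identifiers with names. A symbol was found for 55726 of 63677 genes and for 96 of 100 genes of the lists. IKBKG, OTUD7B, CCL5 and PECAM1 had no match and were not analysed here. The 10 genes, the lists and the word GCAGTT were chosen with earlier results of these data known.

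Counts were tested with edgeR 4.0.16 (limma 3.58.1, R 4.3.3) on the 4 libraries with filterByExpr, TMM factors, the quasi-likelihood test and Benjamini-Hochberg adjustment over 15398 genes. CPM and RPKM used TMM-scaled library sizes and the deposited gene lengths, and the fold change within an isolate used a prior count of 2. The call took the study's thresholds, 0.01 for the adjusted p and 0.6 for the absolute log2-fold change. The main fit had no isolate term, since the study's methods name none. The same isolates occur in both groups, so the replicate numbers pair the libraries, and across 15398 genes, which are not independent, the replicate differences of both groups correlated at 0.464. The blocked fit and, with all 4 libraries, the test of the isolate used terms for group and isolate. Without 1 library the test of the isolate used the isolate term alone. DESeq2 1.42.0, RUVs written out with 1 factor and all genes as controls, other scalings and filters, thinned counts and leaving out each library were alternatives. Nothing says that libraries came from separate cultures beyond the isolate, so p-values measure the spread between these libraries only.

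Named by rule were HMGB1, the 10 genes, the list genes called in the main or blocked fit (the 5 with the smallest blocked p where more were called in a direction), the most abundant gene of each list, the 5 nearest profiles of the 2 most variable members, and all markers but 1, which is not reported here. Exonic overlap came from the exon coordinates deposited with the counts. Shared 50-base pieces and 3′ UTRs came from GENCODE annotation lifted to GRCh37, and promoters from RefSeq. No protein sequences were used here.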

Additional observations from a re-analysis of the deposited data

Results flagged for a closer look

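NFKB1 and BIRC3 moved in opposite directions in the isolates, each with 1 library per group and isolate. NFKB1 had a log2-fold change of −0.10 in I90-10 and 0.12 in I90-79. BIRC3 had −0.43 in I90-10 and 0.53 in I90-79. The difference between the isolates was not tested for either gene, since 4 libraries leave no residual degree of freedom for it.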

How the results depend on the processing

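HMGB1 was called under every alternative that kept all libraries, and without 1 library its log2-fold change ranged from −3.77 to −3.38. With the isolate as a replicate block in edgeR, 1 of the 10 genes (TNFAIP3) was called higher, with a median log2-fold change of 0.32 over the 10, 15 genes of the 3 lists were called higher and 7 lower, and 1028 and 1207 of all genes, in place of 0, 0.31, 0, 0, 10 and 21 in the group-only fit. The block changed the call of none of the other 9 genes. The replicate block in DESeq2 gave 1, 0.32, 13, 6, 967 and 1091. DESeq2 on the groups gave 1 of the 10, 3 and 5 of the lists, and 728 and 818 of all genes. RUVs gave 1, a median of 0.19, 6 and 6, and 765 and 830, and without the filter on low counts these were 1, 0.32, 16 and 8, and 1118 and 1275. With at least 10 counts in every library the median of the 10 was 0.31 and 0 of them were called higher. Of all genes tested, 6 were then called higher. With upper-quartile factors the median of the 10 was 0.32. An adjusted p below 0.05 called 1 and 3 genes of the lists and 575 and 668 of all genes. Leaving out 1 library in turn gave 0 to 1 of the 10 called higher, medians of 0.23 to 0.44, 0 to 10 and 0 to 4 genes of the lists, and 0 to 305 and 0 to 337 of all genes. The lone library of a group is then assumed to vary like the other group. The median of the upstream genes ranged from 0.013 to 0.19 without 1 library and was −0.0032 under RUVs, and that of the other inhibitors ranged from 0.040 to 0.16. The median of the target genes, 0.68, ranged from 0.33 to 2.36 without 1 library and was 0.40 under RUVs. TNFAIP3 was higher in every alternative, at 0.62 to 1.37 (adjusted p from 6.7e-10 to 0.29). NFKB2, REL, RELA, NFKBIZ, NFKBIA and NFKBIE kept their sign under every alternative run, while the size of NFKB2, NFKBIZ, NFKBIA and NFKBIE moved by over 1.5 times. Without 1 library NFKB2 ranged from 0.32 to 0.80, REL from 0.65 to 0.98, RELA from 0.49 to 0.61, NFKBIZ from 0.20 to 0.98, NFKBIA from −0.40 to −0.16 and NFKBIE from −0.50 to −0.19, and under RUVs NFKBIZ was 0.33 and NFKBIE −0.19. NFKB1 turned to −0.10 under RUVs and ranged from −0.16 to 0.17 without 1 library, RELB from −0.0069 to 0.18 and BIRC3 from −0.25 to 0.34. For the isolate contrast without 1 library, NFKB2 ranged from −0.026 to 0.69, REL from −0.26 to 0.67, RELA from −0.25 to 0.37, NFKBIA from −0.052 to 0.33, NFKBIE from −0.48 to −0.11, NFKBIZ from 0.015 to 0.92, TNFAIP3 from −0.037 to 1.18 and BIRC3 from −0.17 to 0.37. Where leaving out a library leaves 3, group and isolate are partly confounded by construction. The isolate values without 1 library came from fits without a group term, so they also carry part of the group difference. RELA was at −0.25 without control replicate 1, while its log2 difference between the isolates within the knockdown group was −0.025. The cause of the other differences was not tested. REL and BIRC3, with 111 to 271 reads in a library, carry the largest counting error of the 10.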
